A study of Mus musculus with 6 samples.

Results

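Adenylyl cyclases make cyclic AMP, phosphodiesterases break down cyclic AMP and cyclic GMP, and regulator of G protein signalling (RGS) proteins speed the return of G protein alpha subunits to their inactive state. The genes described here are the rows of the deposited gene table named Adcy or Pde with a number, or Rgs with a number and, for the anchoring proteins, the ending bp. Adcy5, Pde10a, Pde1b, Rgs9 and Rgs5 were left out by the rule. This gave 54 of 21878 genes: 9 Adcy, 24 Pde and 21 Rgs rows. Expression was measured by bulk RNA sequencing of prefrontal cortex, with all cells kept, in 3 control and 3 Gls1_CamkIIaCre mice. Per the series description, Gls1_CamkIIaCre mice carried CamKIIα-Cre and a single floxed allele of Gls1, which encodes the glutaminase that makes glutamate from glutamine. Controls were littermates that also carried CamKIIα-Cre, with both Gls1 alleles intact, although their genotype label reads WT. The Cre acts in forebrain neurons that use the CamKIIα promoter, so the heterozygous loss is mosaic and other cells of the tissue keep both alleles. Age and sex are not stated in the sources used here.

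In cortical neurons, receptors coupled to stimulatory G proteins raise cyclic AMP through the membrane cyclases, and some cyclases also read calcium through calmodulin. Cyclic AMP acts on protein kinase A, Epac and, through protein kinase A, on the transcription factor CREB. Phosphodiesterases limit the size and spread of the signal, and RGS proteins shorten signalling from inhibitory and Gq-type G proteins. Some genes of these families are much more abundant in striatum than in cortex. Adcy5, Pde10a, Pde1b and Rgs9 are among them, and the rule left these out.

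Counts were scaled by library size to CPM and compared with edgeR, and calls were made over all genes tested at a threshold of 0.05 on p-values adjusted by the Benjamini-Hochberg method. Library totals lay between 17987807 and 19330961 counts. Of the 54 genes, 44 had enough counts to be tested. Among these, 8 were called: Adcy8 and Pde4d rose, and Pde1c, Pde2a, Pde7b, Pde8b, Rgs2 and Rgs8 fell in Gls1_CamkIIaCre samples. That is 18.2% of the tested members, against a background of 8.24% called among 14440 genes, of which 3.95% were higher and 4.29% lower. The median log2 fold change of the tested members was -0.00050, and that of all genes tested was -0.0024. In 17 members the libraries of the groups did not overlap, 8 with all mutants above and 9 with all below, while of all genes tested 26.7% did not overlap, 13.1% with all mutants above and 13.6% with all below. The number called depended on the libraries and the tool, and was 2 without Gls1_CamkIIaCre 1 or without Gls1_CamkIIaCre 2, 3 without control 2, 4 with limma voom and 5 with DESeq2. Rgs2 was called in all 16 alternatives run, and Pde1c and Pde7b in 14 each.

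Promoter sequence is shown for Rgs2, Rgs8 and Pde8b, which fell and, like Pde2a among the called members, have a RefSeq promoter (GRCm38.p6, a window around the transcription start) with the core of the cAMP response element, TGACG on either strand. The sequences run 5′ to 3′ along the gene, and capitals mark that core and the EGR site GCGNGGGCG on either strand. The Rgs2 promoter, its only one in the table, is chr1:144004100-144004399 on the minus strand. For Rgs8, chr1:153652787-153653086 on the plus strand is shown, the 1 of its 3 promoters with the core. For Pde8b, chr13:95223001-95223300 on the minus strand is shown, the 1 of its 5 promoters with the core.
Rgs2: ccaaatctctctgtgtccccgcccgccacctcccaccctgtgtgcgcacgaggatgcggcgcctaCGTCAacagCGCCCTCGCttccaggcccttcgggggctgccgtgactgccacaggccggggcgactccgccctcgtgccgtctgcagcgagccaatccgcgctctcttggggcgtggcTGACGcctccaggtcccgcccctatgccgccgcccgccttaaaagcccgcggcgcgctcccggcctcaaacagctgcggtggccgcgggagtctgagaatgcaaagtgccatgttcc
Rgs8: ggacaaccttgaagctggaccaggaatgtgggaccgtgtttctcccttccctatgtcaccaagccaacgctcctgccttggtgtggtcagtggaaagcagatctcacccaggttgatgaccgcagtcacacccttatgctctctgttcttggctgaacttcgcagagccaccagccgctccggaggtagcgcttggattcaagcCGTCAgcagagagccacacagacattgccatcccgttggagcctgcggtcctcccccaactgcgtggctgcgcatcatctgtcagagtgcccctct
Pde8b: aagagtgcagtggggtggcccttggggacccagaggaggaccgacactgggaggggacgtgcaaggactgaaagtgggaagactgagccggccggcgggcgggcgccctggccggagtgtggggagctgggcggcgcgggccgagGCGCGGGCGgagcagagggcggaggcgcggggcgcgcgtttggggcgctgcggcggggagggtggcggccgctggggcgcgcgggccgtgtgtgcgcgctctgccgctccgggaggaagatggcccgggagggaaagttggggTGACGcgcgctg
Of the 54 members, 38 had promoters in the table, 66 promoters in all, and Adcy8 had none. The full element TGACGTCA was in 0 of the 66, against 1.79% of 32851 promoters of the same length. The TGACG core, which the full element contains, was in 15 of the 66, against 20.8% of all promoters. No promoter of the called members Pde7b, Pde1c or Pde4d held the core, while members not called, such as Rgs4, Pde4b and Pde1a, had a promoter with it. An AP-1 site (TGANTCA) was in 7 of 66 (7.81% of all) and an EGR site in 8 of 66 (5.55% of all). A match describes these letters only.

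The adenylyl cyclases were dominated by Adcy1. Compared per length, in FPKM (fragments scaled by transcript length and library size), Adcy1 stood at 69.1 ± 5.57 in control and 76.4 ± 4.41 in Gls1_CamkIIaCre samples (SD, n = 3 per group, as for all values below). It made up 47.1% to 51.8% of the summed FPKM of the Adcy members in each library. Adcy2 followed at a mean of 37.1 FPKM over the 6 libraries, then Adcy9 at 14.7, Adcy3 at 9.57, Adcy6 at 6.22 and Adcy8 at 4.06, while Adcy7 and Adcy4 stood at 0.783 and 0.686. The soluble cyclase Adcy10 had 2 to 10 counts per library and was not tested. The sum over the Adcy members was 134.8, 139.0 and 148.4 FPKM in controls and 149.5, 146.5 and 157.0 in Gls1_CamkIIaCre samples.

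**Figure D1:**
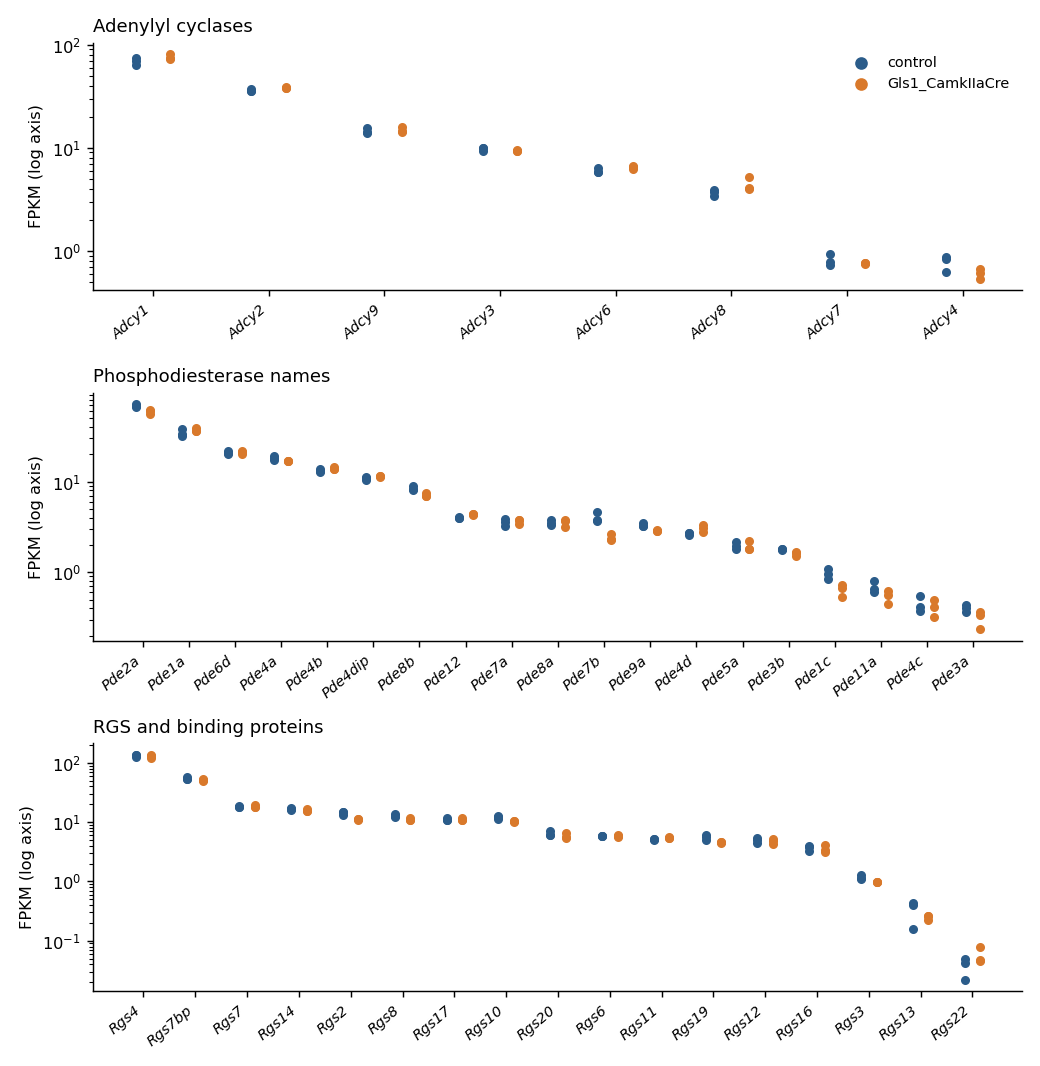
Level of each tested member in FPKM (vertical axis, log scale), ordered within each family by mean level; each point is 1 library, blue for control and orange for Gls1_CamkIIaCre. Adcy1, Pde2a and Rgs4 lead their families, and the differences between groups are small beside the range of levels within a family.

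Adcy8, a cyclase stimulated by calcium and calmodulin, was the member of its family that was called. It had 24.2, 21.5 and 23.6 CPM in controls and 32.6, 27.2 and 25.5 CPM in Gls1_CamkIIaCre samples. All mutant libraries lay above all controls, and Gls1_CamkIIaCre 1 was the highest. The log2 fold change was 0.30 ± 0.086 (SE, edgeR adjusted p = 0.0366). Without Gls1_CamkIIaCre 1 it was 0.19 (adjusted p = 0.203). Adcy8 was called in 6 of 16 alternatives, with adjusted p between 0.00637 and 0.215, and of the fits without 1 library only in that without Gls1_CamkIIaCre 3.

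The other calcium-stimulated cyclases were not called. Adcy1 had 934, 1021 and 1113 CPM in controls against 1112, 1097 and 1221 CPM, and control 3 reached the mutant range (log2 fold change 0.16 ± 0.062, edgeR adjusted p = 0.145). Without control 3, Adcy1 passed, at a log2 fold change of 0.23 (adjusted p = 0.00847). It also passed on all 6 libraries with the replicate number as a block (edgeR adjusted p = 0.00085). Adcy3, the cyclase of olfactory neurons and neuronal cilia, had the same mean in both groups, 54.5 ± 2.63 and 54.5 ± 0.993 CPM. Its span overlaps Cenpo, so reads from sequence that the pair shares cannot be told apart without strand.

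Adcy2, stimulated by G protein beta-gamma subunits, had 192, 190 and 201 CPM in controls and 207, 207 and 212 CPM in mutants, a log2 fold change of 0.10 (edgeR adjusted p = 0.122). Adcy6, which calcium inhibits, had 54.2, 52.3 and 52.5 CPM against 58.7, 59.7 and 56.1 CPM (0.13, adjusted p = 0.122). In both, every mutant library lay above every control, but the difference did not pass. Adcy9, a widely expressed cyclase, had 129 ± 9.27 and 135 ± 9.13 CPM. Adcy4 and Adcy7, the other beta-gamma-stimulated forms, had log2 fold changes of -0.23 and -0.0020, with overlapping groups, and the span of Adcy7 overlaps Brd7. In the family 6 of 8 tested estimates lay above 0, and 5 to 7 of 8 did over the 16 alternatives.

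**Figure D2:**
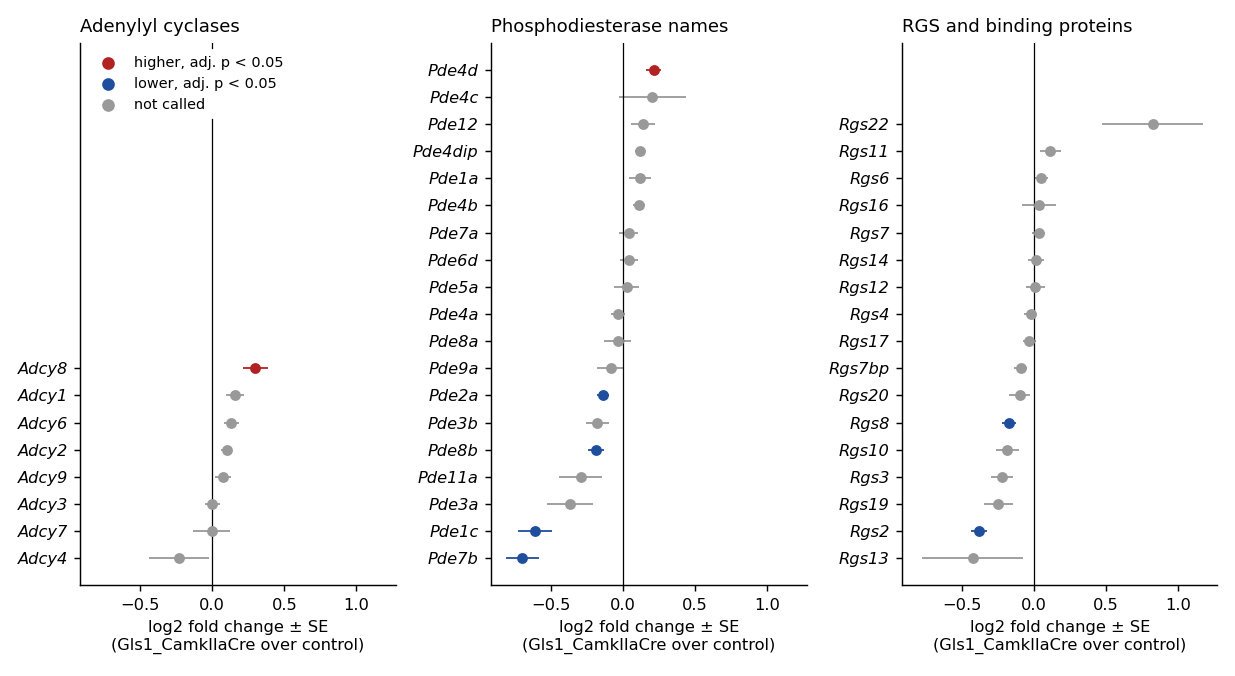
Log2 fold change of Gls1_CamkIIaCre over control for the 44 tested members (horizontal axis; bars are SE), 1 panel per family, with red for higher, blue for lower and grey for not called. Pde7b and Pde1c lie farthest to the left, Adcy8 and Pde4d are the red points, and Rgs22, at the far right, has a wide bar.

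Among the phosphodiesterase names, Pde2a was the most abundant per length. It stood at 68.5 ± 2.5 FPKM in controls and 59.1 ± 2.77 FPKM in mutants, and held 29.7% to 35.1% of the summed FPKM of the Pde members. Pde1a followed at a mean of 35.6 FPKM, then Pde6d at 21.0, Pde4a at 17.5 and Pde4b at 13.6. Pde7b and Pde1c, the members with the largest falls, were at 3.24 and 0.805 FPKM.

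Pde7b, a phosphodiesterase specific for cyclic AMP and known for high expression in striatum, fell the most. It had 59.9, 77.7 and 61.5 CPM in controls and 39.1, 38.2 and 45.1 CPM in Gls1_CamkIIaCre samples. The groups were well apart, and control 2 was the highest library. The log2 fold change was -0.70 ± 0.114 (SE, edgeR adjusted p = 0.0119), so that the fitted level fell by 38.4%. Without control 2 it was -0.57 (adjusted p = 9.92e-05), and the call was lost without Gls1_CamkIIaCre 1 (-0.67, adjusted p = 0.0519) and without Gls1_CamkIIaCre 2 (-0.65, adjusted p = 0.0548).

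Pde1c, a calcium- and calmodulin-activated enzyme that hydrolyses both cyclic nucleotides, had 18.3, 23.6 and 20.1 CPM in controls and 15.4, 14.1 and 11.1 CPM in mutants. Here too every mutant library lay below every control, and control 2 was the highest. The log2 fold change was -0.61 ± 0.117 (SE, edgeR adjusted p = 0.00492). Its relative Pde1a was not called, with 327, 311 and 378 CPM in controls against 352, 353 and 395 CPM in overlapping groups (0.11 ± 0.077, adjusted p = 0.444). Without control 3, Pde1a passed, at a log2 fold change of 0.20 (edgeR adjusted p = 0.0156). It also passed with the replicate number as a block. Whether the change of Pde1c differed from that of Pde1a was not tested.

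Pde2a, a dual-substrate enzyme that cyclic GMP activates, fell by a small amount. It had 432, 468 and 468 CPM in controls and 394, 420 and 428 CPM in mutants, with the highest mutant just below the lowest control. The log2 fold change was -0.14 ± 0.043 (SE, edgeR adjusted p = 0.0486). It did not pass without control 2, control 3, Gls1_CamkIIaCre 1 or Gls1_CamkIIaCre 2 (adjusted p between 0.121 and 0.219). Pde2a was called in 9 of 16 alternatives, and not with limma voom. The remaining dual-substrate enzymes, Pde3a, Pde3b and Pde11a, also had estimates below 0 but were not called. Pde3a, which cyclic GMP inhibits, had 7.71, 7.28 and 6.67 CPM against 6.80, 5.79 and 4.22 CPM (-0.37 ± 0.158, adjusted p = 0.166).

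Of 8 phosphodiesterases specific for cyclic AMP, all tested, 1 rose and 2 fell. Pde4d rose from 100.2, 100.1 and 97.3 CPM to 125, 114 and 105 CPM, with all mutants above all controls and a wider spread among mutants. Its log2 fold change was 0.21 ± 0.054 (SE, edgeR adjusted p = 0.0187), and 0.15 (adjusted p = 0.115) without Gls1_CamkIIaCre 1. Without control 2, control 3 or Gls1_CamkIIaCre 2 it did not pass either (adjusted p between 0.0513 and 0.0798). Pde4d was called in 10 of 16 alternatives, and not on FPKM values. Pde4b, another member of the family that rolipram inhibits, had 137, 145 and 134 CPM against 155, 147 and 147 CPM (0.11, adjusted p = 0.129), and Pde4a had 133 ± 8.53 and 130 ± 2.64 CPM (-0.035, or 0.016 without control 3). Pde8b fell, with 85.1, 96.6 and 89.1 CPM in controls and 75.9, 76.6 and 85.6 CPM in mutants. Gls1_CamkIIaCre 3 overlapped the controls, and the log2 fold change was -0.19 ± 0.056 (SE, edgeR adjusted p = 0.0456), or -0.13 (adjusted p = 0.238) without control 2. Without control 3, Gls1_CamkIIaCre 1 or Gls1_CamkIIaCre 2 it did not pass either (adjusted p between 0.0666 and 0.199). Pde8b was called in 7 of 16 alternatives, and not with DESeq2, with limma voom or on FPKM values. Pde4c, Pde7a and Pde8a were not called and overlapped between groups.

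The enzymes specific for cyclic GMP, Pde5a and Pde9a, had 19.9 and 13.5 CPM in controls and 20.2 and 12.7 CPM in mutants, and were not called. The photoreceptor genes Pde6a, Pde6b, Pde6c, Pde6g and Pde6h were near the floor, with 1 to 8 counts per library, and were not tested. Pde6d, Pde4dip and Pde12 carry the name but have other roles: Pde6d binds prenylated proteins, Pde4dip is a centrosome and Golgi scaffold, and Pde12 acts on RNA in mitochondria. Pde4dip was closest to passing, with 220, 214 and 227 CPM against 239, 242 and 237 CPM in groups that did not overlap (0.12 ± 0.039, edgeR adjusted p = 0.0632). It passed without control 3 and with the replicate number as a block. Pde6d stood at 34.1 ± 0.619 and 35.1 ± 1.46 CPM, and its span overlaps Cops7b.

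**Figure D3:**
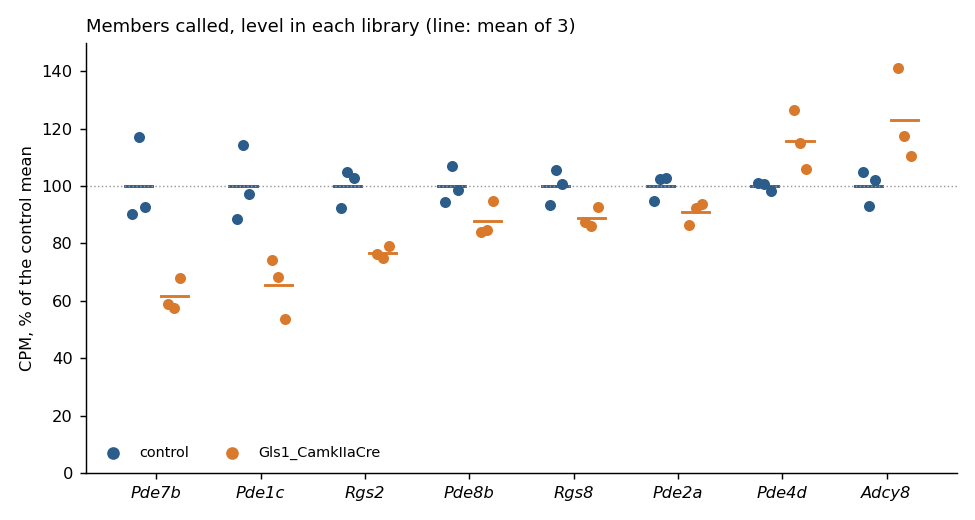
The 8 called members, each library as a percentage of that gene's control mean (vertical axis, from 0), with blue for control, orange for Gls1_CamkIIaCre and a line at each mean of 3 libraries. Pde7b, Pde1c and Rgs2 show a clear gap between groups, while the highest mutant of Pde8b lies inside the control range.

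Among the RGS genes, Rgs2 and Rgs8 fell and none rose. Rgs4, which is abundant in cortical neurons, was the most abundant per length, at 130 ± 6.16 FPKM in controls and 129 ± 7.82 FPKM in mutants, and held 42.3% to 45.4% of the summed FPKM of the Rgs members. Rgs7bp, which anchors the R7 group at the membrane, followed at a mean of 53.2 FPKM, then Rgs7 at 18.4, Rgs14 at 16.3, Rgs2 at 12.7 and Rgs8 at 12.1. Rgs2 and Rgs8 were neighbours in this order: Rgs2 was above Rgs8 in each control library, at 13.2, 15.03 and 14.7 against 12.2, 13.6 and 12.9 FPKM, and in mutants they stood at 11.1, 10.9 and 11.4 against 11.1, 10.9 and 11.8 FPKM.

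Rgs2, a small RGS protein that acts mainly on Gq and whose transcript is known to be induced by neuronal activity, had the smallest p of all members. It had 58.7, 66.8 and 65.4 CPM in controls and 48.5, 47.7 and 50.4 CPM in Gls1_CamkIIaCre samples. The mutants lay close together and below every control. The log2 fold change was -0.38 ± 0.057 (SE, edgeR adjusted p = 0.000563), so that the level fell by 23.1%, and over the 16 alternatives it lay between -0.43 and -0.34, with adjusted p between 4.47e-06 and 0.016. Immediate early genes, which activity also induces, mostly stood the other way: of 16 listed, 6 rose, none fell and 10 were not called. Estimates lay above 0 for 15 of them, while Egr3 had all mutants below all controls (-0.12, edgeR adjusted p = 0.099). The mean relative level of the list was 0.915, 0.825 and 0.741 in controls and 1.11, 1.39 and 1.02 in mutants. The part of these genes in the result for Rgs2 was not tested.

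Rgs8, known from Purkinje cells and also made in forebrain, had 97.7, 111 and 105 CPM in controls and 91.3, 90.0 and 96.8 CPM in mutants. The highest mutant, Gls1_CamkIIaCre 3, lay just below the lowest control. The log2 fold change was -0.17 ± 0.050 (SE, edgeR adjusted p = 0.0385), or -0.13 (adjusted p = 0.207) without control 2. Without control 3, Gls1_CamkIIaCre 1 or Gls1_CamkIIaCre 2 it did not pass either (adjusted p between 0.0734 and 0.177). Rgs8 was called in 7 of 16 alternatives, and not with DESeq2, with limma voom or on FPKM values.

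Rgs2 and Rgs8 belong to the R4 group of small RGS proteins, of which 6 of 9 were tested. Rgs4 had 468, 510 and 511 CPM in controls against 457, 488 and 520 CPM in overlapping groups (-0.023 ± 0.047, edgeR adjusted p = 0.831). Rgs3 had 23.4, 22.7 and 21.0 CPM against 19.4, 18.7 and 19.4 CPM, with all mutants below all controls (-0.22 ± 0.077, adjusted p = 0.0807). Rgs16 and Rgs13 were not called, at 9.73 and 1.62 CPM in controls and 9.98 and 1.21 CPM in mutants. Rgs1 and Rgs18 had 0 to 10 counts per library and Rgs21 had 0 counts in every library, so these were not tested.

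On the chromosome, 10 of the 21 Rgs members lie on chromosome 1 (GRCm38.p6). Rgs2 (chr1:143999338-144004149), Rgs13, Rgs1, Rgs21 and Rgs18 form a run that ends at 144775427, and in it Rgs2 and Rgs13 alone were abundant enough to be tested. Rgs8 (chr1:153652959-153697669) lies next to Rgs16 (chr1:153740353-153745468), which had a log2 fold change of 0.037 ± 0.119 and was not called.

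The R7 group, which works in complex with the G protein subunit Gnb5, was not called. Rgs7 had 94.1, 94.6 and 99.2 CPM in controls and 94.2, 97.4 and 103 CPM in mutants (0.032 ± 0.047, edgeR adjusted p = 0.750), and Rgs6 and Rgs11 had log2 fold changes of 0.051 and 0.11. Rgs7bp had 494, 514 and 543 CPM against 478, 462 and 513 CPM (-0.093 ± 0.044, adjusted p = 0.219), and Rgs9bp, with 5 to 14 counts per library, was not tested. Gnb5 itself fell, from 143, 156 and 145 CPM to 137, 131 and 130 CPM (log2 fold change -0.16 ± 0.044, adjusted p = 0.0308), a call lost without control 2 (-0.12, adjusted p = 0.176), Gls1_CamkIIaCre 2 or Gls1_CamkIIaCre 3 (adjusted p = 0.136 and 0.0855).

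In the R12 group, Rgs14, a scaffold best known in hippocampal area CA2, had 49.2 ± 1.01 and 49.6 ± 3.01 CPM, and Rgs12 had 51.9 ± 3.38 and 52.3 ± 4.5 CPM. Rgs10, which is abundant in microglia, had 20.8, 21.9 and 19.9 CPM against 17.8, 18.6 and 18.8 CPM, with all mutants below all controls but no call (-0.18 ± 0.078, edgeR adjusted p = 0.162). Of 9 microglia markers 4 fell, with summed levels of 543.9 to 610.6 CPM in controls and 492.5 to 535.7 CPM in mutants and no marker at 0. Their part in the values of Rgs10 was not tested. In the RZ group, Rgs19 had 13.2, 15.3 and 16.95 CPM against 12.6, 12.9 and 12.7 CPM (-0.25 ± 0.101, adjusted p = 0.143), and Rgs17 and Rgs20 overlapped between groups. Rgs22, known from testis, had 0.510 to 0.996 CPM in controls and 1.00 to 1.55 CPM in mutants. Its log2 fold change of 0.82 ± 0.350 rests on few counts and did not pass (adjusted p = 0.160).

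Striatal transcripts differed between the groups and among the controls. Of 19 striatum markers, which include Adcy5, Pde10a, Pde1b and Rgs9, 16 fell and none rose. Their mean level relative to the mean of the 6 libraries was 1.18, 2.07 and 1.39 in controls and 0.442, 0.449 and 0.470 in mutants, and their summed level was 1157 to 1766 CPM in controls against 616.7 to 638.0 CPM in mutants, with no marker at 0. Of the 10 markers of cortical excitatory neurons, all were detected, 2 rose and none fell. On the lists of other cells no gene rose, and 3 of 8 interneuron, 4 of 10 oligodendrocyte, 4 of 9 astrocyte and 6 of 8 meningeal markers fell. The interneuron markers that fell were Gad2, Slc32a1 and Sst. Gad1, Pvalb and Lhx6 were not called, nor were Vip and Lamp5, whose log2 fold changes were 0.13 and 0.12. In bulk tissue, fewer cells of a type, less RNA per cell and a different share of neighbouring tissue in the sample cannot be told apart.

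Control 2, which had the highest striatal level, was also the highest control for 5 of the 6 lower members (Pde1c, Pde7b, Pde8b, Rgs2 and Rgs8). Among all 619 genes called lower it was the highest control for 44.7%, and among all genes tested for 32.2%. Relative to the mean of the 6 libraries, Pde7b stood at 1.12, 1.45 and 1.15 in controls and 0.731, 0.712 and 0.843 in mutants. Rgs2 stood at 1.04, 1.19 and 1.16 against 0.863, 0.849 and 0.895. Without control 2, Rgs2 (-0.34, edgeR adjusted p = 0.00465), Pde1c (-0.50, adjusted p = 0.022) and Pde7b were still called, while Pde2a (-0.12), Pde8b and Rgs8 were not. The part of striatal RNA in these results was not tested.

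**Figure D4:**
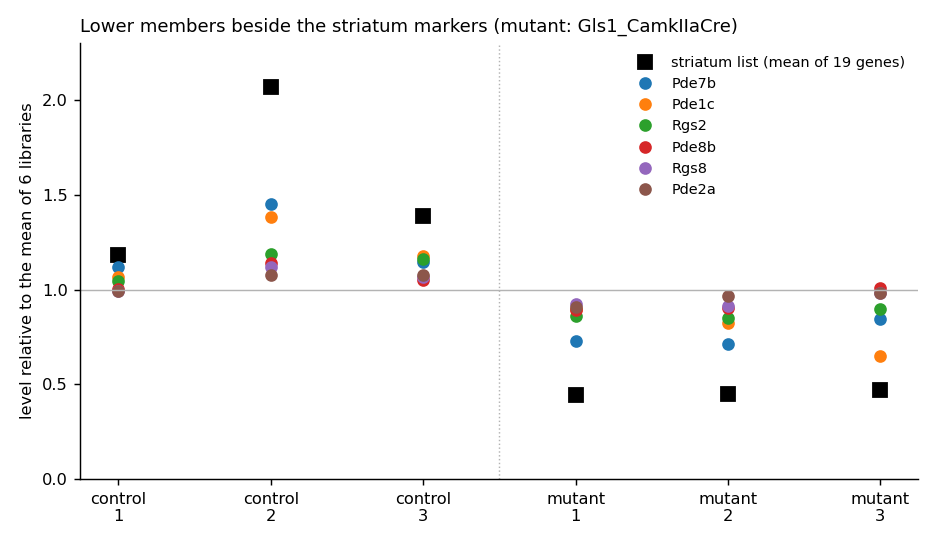
Level of the striatum list (black squares, mean of 19 genes) and of the 6 lower members (coloured circles) in each library, relative to the mean of the 6 libraries (vertical axis); mutant stands for Gls1_CamkIIaCre. Control 2 is the highest for the list and for 5 of the 6 members, and the list spans 0.442 to 2.07 while Rgs2 spans 0.849 to 1.19.

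The partners of these families in cyclic nucleotide and G protein signalling were followed on 6 lists with 90 tested genes. Of these, 1 rose and 7 fell, or 8.89% against the 8.24% background, with a median log2 fold change of 0.0045. The falls lay mostly among the G protein subunits, with 5 of 25, and 1 of 22 fell among protein kinase A, Epac and anchoring proteins. Among 8 CREB factors and 14 genes of cyclic GMP synthesis and action, edgeR, DESeq2 and limma voom each called 0, with 1 in each list at an unadjusted p under 0.05.

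Gnal, which encodes the stimulatory alpha subunit that drives cyclases in striatum and olfactory neurons, fell from 285, 366 and 322 CPM to 231, 235 and 234 CPM (-0.48 ± 0.082 on the log2 scale, edgeR adjusted p = 0.0145). Its counterpart in most other cells, Gnas, had 1140, 1127 and 1146 CPM against 1136, 1192 and 1203 CPM and was not called (0.049, adjusted p = 0.487). Gng7, the gamma subunit that pairs with Gnal, fell from 187, 279 and 200 CPM to 106, 106 and 112 CPM (-1.04, adjusted p = 0.0479), and Ppp1r1b, which encodes the striatal phosphatase inhibitor DARPP-32, from 189, 308 and 231 CPM to 73.9, 79.2 and 92.2 CPM (-1.57, adjusted p = 0.0318). In these 3 falling genes control 2 was the highest library, as for the striatum list. All 3 lost their call without control 3 or without any 1 of the mutant libraries (adjusted p between 0.0567 and 0.167). Gng7 also lost it without control 1 (0.0644), while without control 2 all 3 were called. Among the other falling partners, control 2 was the highest library for Gnb5, Gng11 and Prkar2b too, but not for Gng10.

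The gamma subunits Gng10 and Gng11 also fell. Gng10 went from 45.5, 44.5 and 43.9 CPM to 39.5, 37.6 and 36.8 CPM (-0.23, edgeR adjusted p = 0.0151), and Gng11 from 8.12, 9.59 and 7.64 CPM to 6.48, 5.18 and 5.33 CPM (-0.58, adjusted p = 0.0141). Gng10 did not pass without control 1, Gls1_CamkIIaCre 2 or Gls1_CamkIIaCre 3, nor Gng11 without control 2 or Gls1_CamkIIaCre 2 (adjusted p between 0.0551 and 0.0930). Beside Gng11, which endothelial cells express, 6 of 12 endothelial and mural markers fell. The endothelial ones among them were Cldn5 and Kdr, and the others, Acta2, Tagln, Pdgfrb and Vtn, were mural. The endothelial markers Flt1, Pecam1 and Slco1a4 were not called, with log2 fold changes of -0.00081, -0.017 and -0.038. Summed levels of the list were 464.8 to 522.1 CPM in controls and 428.8 to 456.5 CPM in mutants, with no marker at 0. The part of these markers in the fall of Gng11 was not tested.

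Downstream of cyclic AMP, Prkar2b, a regulatory subunit of protein kinase A, fell from 97.2, 107 and 101 CPM to 84.9, 85.2 and 88.1 CPM (-0.24 ± 0.047 on the log2 scale, edgeR adjusted p = 0.00387), and it kept its call in all 16 alternatives. The catalytic subunit Prkaca (183 ± 8.24 and 175 ± 8.94 CPM) and the transcription factor Creb1 (88.8 ± 5.34 and 87.9 ± 6.54 CPM) were not called. The partner that rose was Adrbk2, a receptor kinase also known as GRK3, from 148, 149 and 142 CPM to 171, 160 and 163 CPM (0.18 ± 0.042, adjusted p = 0.0129), a call lost without Gls1_CamkIIaCre 1 (0.15, adjusted p = 0.0755).

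**Figure D5:**
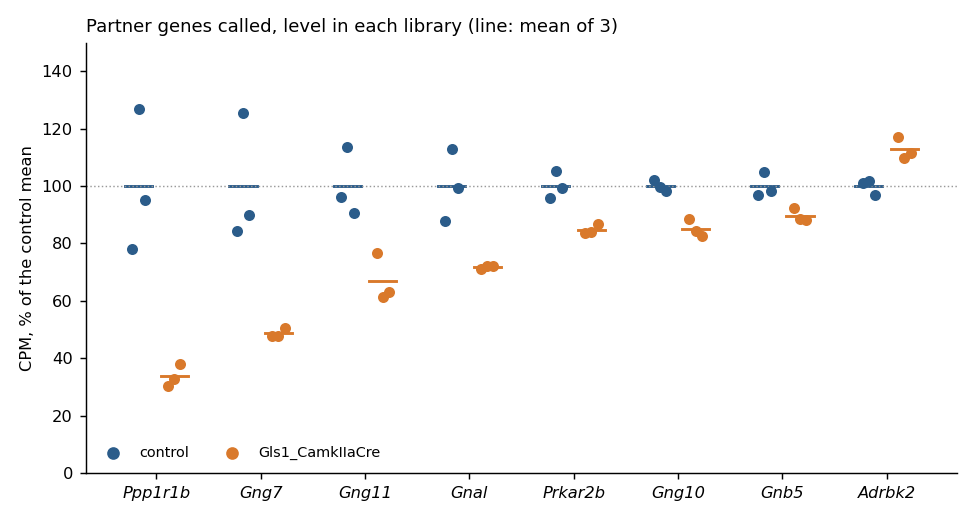
The 8 called partner genes, each library as a percentage of that gene's control mean (vertical axis, from 0), with blue for control, orange for Gls1_CamkIIaCre and a line at each mean of 3 libraries. Every falling gene but Gng10 has control 2 as its highest library. Ppp1r1b, Gng7 and Gnal have tightly grouped mutants, and Adrbk2 is the gene with all mutants above all controls.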

How the data were processed

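Total RNA was extracted with TRIzol and libraries were made with a SMARTer mRNA kit, per the labels' protocols. The authors deposited raw read counts and FPKM values for 21878 genes in 6 libraries. The submitters' processing notes name GRCm38 and mm10. No source used here gives the aligner, the counting tool or its use of strand. Counts were normalised by TMM and tested with edgeR 4.0.16 (robust quasi-likelihood, R 4.3.3) after its filter on low counts, which left 14440 genes. SE is the absolute log2 fold change over the square root of F. FPKM values were used for levels between genes. Alternatives used DESeq2 1.42.0 and limma 3.58.1, and the test was checked on simulated counts. Named genes were the called members and partners, in each family the 4 of highest FPKM and the 3 uncalled ones of smallest p, all untested members, and Gnas, Gnal, Prkaca and Creb1. Other members are named to account for all. Members and lists were chosen with earlier results of these data known. The level of the targeted gene is not reported here.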

Additional observations from a re-analysis of the deposited data

How the results depend on the processing

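Against 8 members called, DESeq2 gave 5, limma voom 4, limma on log2(FPKM + 1) 3, limma on log2(FPKM + 0.1) 3 and the non-robust fit 4, and leaving out 1 library gave 2 to 8. Against 8 partners called, leaving out 1 library gave 2 to 6. Over all genes, 1190 were called, 674 on log2(FPKM + 1), of which 116 were higher, and 729 on log2(FPKM + 0.1), of which 122 were higher. Upper-quartile factors gave 429 higher and 749 lower, against 571 and 619, and leaving out 1 library gave 415 to 1098. The median log2 fold change of all genes tested was -0.0024 in the main fit and -0.019 with upper-quartile factors. It was -0.023 on log2(FPKM + 1) and -0.031 on log2(FPKM + 0.1). The cause of these differences was not tested, but leave-one-out fits have fewer samples.

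Deviations of same-numbered libraries correlated at 0.154, -0.0421 and 0.183. Differently numbered libraries were not compared, so these values cannot decide whether the replicate numbers pair the samples. With the replicate number as a block, 11 members (5 higher, 6 lower), 6 partners and 1758 genes were called. The higher members included Adcy1, Pde1a and Pde4dip, which the main fit did not call.

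Of 591 values for 37 named genes, 490 kept direction and side of the threshold, 71 no longer passed, 6 newly passed and 24 changed sign, in 8 genes that were not called. With upper-quartile factors Adcy3 was -0.016 and Rgs14 -0.0026. On log2(FPKM + 1), Adcy3 was -0.056, Pde6d -0.0026, Rgs14 -0.066, Creb1 0.0097 and Gnas -0.049, and on log2(FPKM + 0.1) they were -0.061, -0.0027, -0.070, 0.011 and -0.049. With 1 library left out, values ran from -0.034 to 0.032 for Adcy3 (also -0.010 and -0.00062), -0.072 to 0.016 for Pde4a, -0.070 to 0.023 for Rgs4, -0.0019 to 0.061 for Rgs7, -0.033 to 0.055 for Rgs14 (also -0.00094) and -0.076 to 0.028 for Creb1 (also 0.00090, 0.0016 and 0.019). Rgs22 and the untested members are limited by depth.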
